A study of Mus musculus with 3 samples.

Results

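Replication-dependent histone genes encode the core histones H2A, H2B, H3 and H4, around which nuclear DNA is wrapped, and the linker histone H1. The genes described here are the protein-coding genes of the mouse whose symbols begin with Hist1h, Hist2h, Hist3h or Hist4h in the GENCODE annotation of the mm10 genome, 67 of 21938 protein-coding genes. They were chosen by name and not by a measured value, though earlier results of these data were known. The cells were LT-HSCs, hematopoietic stem cells that can rebuild blood over the long term, taken from bone marrow. The mice were wild-type C57BL/6 females (C57BL/6J in the study's methods), 24 months old. Marrow was enriched for c-Kit and sorted by flow cytometry as lineage-negative, Sca-1+, c-Kit+, CD150+, CD48- and CD34- cells. DOGMA-seq, which measures chromatin accessibility (ATAC), transcripts and tagged antibodies in each cell, gave 3 libraries from 1 pool, so each assay had 1 sample. All cells compared below share this strain, sex, age, genotype and sort, and were grouped by their own antibody or RNA counts. Cells of 1 pool are not replicates, no test was run, and every interval is an exact 95% interval that covers counting error only.

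Most genes of this family are built for S phase, when new DNA must be packed at the pace at which it is copied. They have no introns, and their messages end in a short stem-loop in place of a poly(A) tail, which the stem-loop binding protein Slbp recognises. NPAT, a target of cyclin E and Cdk2, collects at the gene clusters in histone locus bodies and drives their transcription. Adult LT-HSCs are mostly out of cycle. The family also holds testis histones, which replace the usual forms in male germ cells. The RNA library captures poly(A) messages and its gene matrix was not analysed here, so what was measured at these genes is the openness of their chromatin.

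The members fell into 4 loci. Hist1 held 54 genes on chromosome 13 between 21716143 and 23934462 (mm10), Hist2 held 10 genes on chromosome 3 between 96219865 and 96269752, Hist3 held 2 genes on chromosome 11 and Hist4 held 1 gene on chromosome 6. By type there were 6 H1, 18 H2A, 18 H2B, 12 H3 and 13 H4 genes. The 13 H4 genes had 12 different coding sequences and encoded 1 protein of 103 residues, counting the first methionine. The 12 H3 genes encoded 2 proteins that differed at 1 residue, from 8 and 4 genes. The 18 H2A genes encoded 9 proteins and the 18 H2B genes 11, and each of the 6 H1 genes had a protein of its own. The H4 genes thus differ in their promoters and not in their protein.

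The stem-loop is the sequence that marks the family, and its commonest forms are shown here, 5′ to 3′ on the coding strand, with the loop in capitals and the paired stem in lower case. A stem of 6 pairs around a loop of 4 bases beginning TTT was found within 100 bases after the stop codon in 63 of 67 members (94.0%), against 116 of all 21938 protein-coding genes (0.529%), a count that includes those members. It began 22 to 59 bases after the stop codon, with a median of 31. The first form below was shared by 41 members, the second by 9 and the third by 8.
Hist1h1a, chr13:23764392-23764407, plus strand: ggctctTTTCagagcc
Hist1h1t, chr13:23696525-23696540, plus strand: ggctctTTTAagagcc
Hist1h4c, chr13:23698089-23698104, minus strand: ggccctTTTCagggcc
No match of this exact kind was found after Hist1h2an, Hist1h3g, Hist1h4a and Hist2h2be, which says only that these letters are not in that window.

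The next 5 promoter stretches are shown because they carry the contrasts described below: the most open H4 promoters, an open and a closed H1 promoter, and 1 promoter shared by a pair of genes. Each is the 150 bases before the annotated start on the strand of the gene, except the last, which is the whole stretch between a pair of starts on the plus strand. Capitals mark 4 motifs in either direction: the CCAAT box (CCAAT), the TATA box (TATAAA), the octamer (ATGCAAAT) of the factors Pou2f1 and Pou2f2, and the H1 box (AAACACA).
Hist1h4a, chr13:23761231-23761380, minus strand: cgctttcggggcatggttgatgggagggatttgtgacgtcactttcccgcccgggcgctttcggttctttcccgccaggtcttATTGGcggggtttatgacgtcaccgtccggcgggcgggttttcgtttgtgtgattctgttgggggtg
Hist1h4h, chr13:23530900-23531049, plus strand: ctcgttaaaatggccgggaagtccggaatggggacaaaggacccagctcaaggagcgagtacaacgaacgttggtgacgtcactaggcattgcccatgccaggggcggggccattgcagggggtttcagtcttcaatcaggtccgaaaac
Hist1h1c, chr13:23738658-23738807, plus strand: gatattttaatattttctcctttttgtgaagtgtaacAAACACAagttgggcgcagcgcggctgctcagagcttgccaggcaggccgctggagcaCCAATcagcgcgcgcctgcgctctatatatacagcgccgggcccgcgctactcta
Hist1h1t, chr13:23695664-23695813, plus strand: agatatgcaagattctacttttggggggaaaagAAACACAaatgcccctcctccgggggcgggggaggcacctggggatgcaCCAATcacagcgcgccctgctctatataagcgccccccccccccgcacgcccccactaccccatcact
Hist1h2ac to Hist1h2bc, chr13:23683949-23684198, plus strand: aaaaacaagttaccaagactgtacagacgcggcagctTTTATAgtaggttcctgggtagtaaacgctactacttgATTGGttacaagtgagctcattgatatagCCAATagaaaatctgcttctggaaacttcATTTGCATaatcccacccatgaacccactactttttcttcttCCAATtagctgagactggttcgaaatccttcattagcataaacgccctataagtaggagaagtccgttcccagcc
The shared H2A-H2B stretch held 3 CCAAT boxes and an octamer between starts that lie 251 bases apart. Hist1h1c and Hist1h1t both carried the H1 box, beginning 113 and 117 bases before the start, and a CCAAT box 55 and 68 bases before it.

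Over the 250 bases before to 50 after each start, the members were poor in G and C and rich in CpG for that content. The median G and C share was 45.3% in members and 55.0% in all protein-coding genes, and the median ratio of observed to expected CpG was 0.750 against 0.525. A CCAAT box was present in 83.6% of members against 39.0% of all protein-coding promoters, in all 18 H2A and all 18 H2B genes but in 4 of 13 H4 genes. The octamer was present in 22.4% of members against 1.57% of all promoters. All of these were H2A (7 of 18) or H2B (8 of 18) genes, a pattern shared by partners of a pair, since they share the stretch searched. The H1 box was present in 4 of 6 H1 genes against 6.40% of all promoters, and TATAAA in 55.2% of members against 12.6%. A match is a description of letters and not a bound site. The stretches were taken at annotated starts, which for Hist1h2be and Hist1h1d lie 35168 and 1828 bases from the start codon.

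Openness was counted as ATAC fragments that overlapped 1 kb on either side of a gene start, each fragment once per gene. Of 4369 barcodes called as cells, 3724 had antibody counts and 3629 had 10 or more antibody tags; these 3629 held 38554133 of the 43705382 deposited fragments, with a median of 10300 per cell. The label of the cells was checked at gene starts: of 9 LT-HSC markers, Kit had most fragments (1681) and Mecom fewest (19, at its annotated first start), while T cell markers had 3 to 27, B cell markers 2 to 48, granulocyte and macrophage markers 11 to 159, erythroid markers 13 to 279 and megakaryocyte markers 514 to 829. Of the 9 LT-HSC markers, 5 lay above the median protein-coding gene, and Slamf1 (165), Procr (304) and Ly6a (115) were among those below it. The median was 463 for LT-HSC and 716 for megakaryocyte markers, so these counts did not set LT-HSC genes above megakaryocyte genes. The 1093 olfactory receptor genes, closed outside the nose, had a median of 1 fragment. In all, 310 cells had an excess of positions covered by 3 or more fragments, a measure that also grows with a cell's depth.

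The histone genes were open in LT-HSCs, but unevenly. Together the 67 windows held 38924 distinct fragments (interval 38538 to 39313), 10.7 per cell, and every cell had at least 1. The median member had 719 fragments against 382 for all protein-coding genes and stood at percentile 62.1 among them, and 48 of 67 members lay above the median gene. Among only genes with at least 20 fragments, the median member's percentile was 51.6. The other percentiles given here are among all protein-coding genes. Genes that act beside histones in cell growth and division had higher medians: the 40 DNA replication genes at percentile 78.5, the 80 ribosomal protein genes at 81.1, the 15 histone chaperones at 90.3 and the 12 genes of histone transcription and message processing at 86.8. The 11 replacement histones, which are made also outside S phase and mostly from polyadenylated messages, stood at 75.5. Among them H2afv had most fragments (2998) and H3f3b fewest (262). Npat had 2349, Slbp 1951 and Pou2f1 3998, the most of the transcription and processing list, and Zfp473 had fewest (30). The chaperones ran from Hjurp (6538) to Atrx (590), and the DNA replication genes from Gins2 (3147) to Lig1 (97). Each gene of these lists, H3f3b and Lig1 included, was counted at 1 annotated start, and any other start was not measured.

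**Figure D1:**
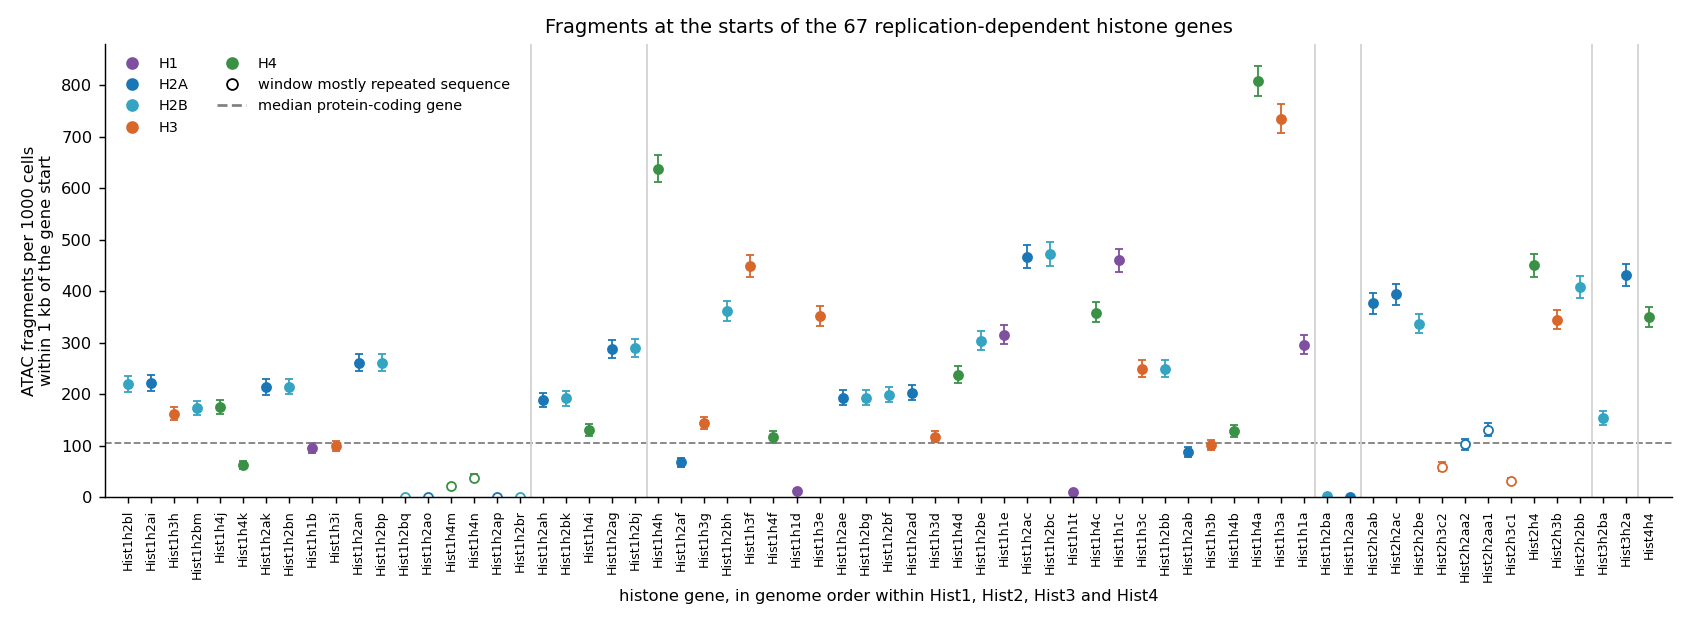
Each point is 1 of the 67 histone genes, with ATAC fragments within 1 kb of its start per 1000 cells on the vertical axis, its exact 95% Poisson interval, and its histone type by colour; vertical lines part the loci and the stretches of Hist1. Hist1h4a stands highest at 808 and the testis genes Hist1h1t, Hist1h2ba and Hist1h2aa lie at 10.2 or below, with the median protein-coding gene as the dashed line.

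With windows of 1 kb on each side, the 5 most open members lay in 1 stretch of Hist1. Hist1h4a (ENSMUSG00000060093.6, chr13:23760692-23761230, minus strand) had 808 fragments per 1000 cells (interval 779 to 838) and at least 1 fragment in 50.9% of cells, at percentile 97.8. Hist1h3a, an H3 gene 1156 bases away, had 735 per 1000 cells, and 50.1% of the fragments of the pair reached both windows. Of the 2666 fragments of Hist1h3a, 1868 also reached the window of Hist1h4a. With windows of 250 bp on each side Hist1h3a held 907. Hist3h2a on chromosome 11, with 1145, then took its place among the 5 highest. Hist1h4h had 638 per 1000 cells (612 to 664) and shared its window with no other member. Hist1h2bc and Hist1h2ac followed with 472 and 467, and they shared 97.5% of their fragments. The highest of the H1 genes was Hist1h1c, with 460 per 1000 cells (438 to 482). Among H4 genes, which all make the same protein, windows with under 50% repeated words ran from 61.7 per 1000 cells at Hist1h4k to 808 at Hist1h4a, and their intervals were far apart.

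The lowest members were of 3 kinds. Hist1h2ao, Hist1h2ap, Hist1h2bq and Hist1h2br had 0 fragments. Every position of their windows began a 50-base word that occurs more than once in the genome, so reads from them cannot be placed, and their openness was not measurable. They sit with Hist1h4m (76 fragments) and Hist1h4n (137) in a duplicated block. In all, 10 members had such words over 50% or more of their window, among them Hist2h3c1 (114), Hist2h3c2 (214), Hist2h2aa2 (372) and Hist2h2aa1 (476). The 57 other members had a median of 803 fragments, at percentile 64.9.

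The second kind was the testis histones. Hist1h2aa had 5 fragments, Hist1h2ba 6 and Hist1h1t 37, that is 1.38, 1.65 and 10.2 per 1000 cells, and 6.90% or less of their window positions were repeated words. The start of its neighbour Hist1h4c, an H4 gene on the other strand, had 1301 fragments. The 37 fragments of Hist1h1t stood against 1668 at Hist1h1c, although the promoters printed above hold the H1 box and a CCAAT box at near the same place in both. The third kind was Hist1h1d, with 46 fragments at an annotated start that lies 1828 bases from its start codon. A window over the start codon held 621. Hist1h2be had its annotated start 35168 bases from its start codon, next to Hist1h1e, and its window held 1103 fragments there and 977 over the start codon. These start-codon windows were chosen after the data were seen.

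Openness also differed by locus. All 10 Hist2 members, repeats included, had a median of 1236 fragments against 699.5 for the 54 Hist1 members. Without windows of 50% or more repeated words, 6 Hist2 members had 1397 and 48 Hist1 members 755.5. Hist2h4, an H4 gene, had 1633, Hist2h2bb 1480, Hist2h2ac 1429, Hist2h2ab 1365, Hist2h3b 1250 and Hist2h2be 1221. Hist3h2a had 1566 fragments and its neighbour Hist3h2ba 557. Hist4h4, the only member on chromosome 6, had 1268. Within Hist1, the 29 genes from Hist1h4h to Hist1h1a had a median of 905 fragments, the 5 from Hist1h2ah to Hist1h2bj had 696, and none of these had such windows. The 18 from Hist1h2bl to Hist1h2br had 474.5, but 6 of them lie in the duplicated block, and the other 12 had 706. Per kilobase covered, windows with under 50% repeated words held 474, 355 and 281 distinct fragments in these 3 stretches.

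By histone type, over the 57 members with under 50% repeated words, the median was 709.5 fragments for H1, 789.5 for H2A, 852 for H2B, 747 for H3 and 863 for H4, each with single genes far to either side. Per kilobase covered, these H4 windows held 569 distinct fragments, H3 499, H2B 456, H2A 425 and H1 359. With all 67 members the values were 490, 430, 406, 352 and 359, which count unplaceable bases as covered and put H2A below H1. These orders are of 1 kb windows, and the order by type was not compared with windows of 250 bp. At the outer ends of the windows with under 50% repeated words, fragment ends per base and gene were 0.958 in H3 and 0.768 in H1. They were 0.388 in H4, 0.313 in H2B and 0.301 in H2A. Some of the signal was shared, since 51 of 67 members lay in a window that touched another, and the 67 windows formed 38 separate blocks. In 13 divergent pairs, starts on opposite strands lay 176 to 660 bases apart, with a median of 268. All of these pairs but 1 joined an H2A and an H2B gene, and the exception joined Hist1h2bh and Hist1h3f. Partners shared much of their signal: over the 11 pairs with any fragment, from 57.1% of fragments (Hist1h2ba and Hist1h2aa, which had 7 in all) and 78.6% (Hist1h2bh and Hist1h3f) to 99.8% (Hist1h2an and Hist1h2bp).

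Within the clusters, fragments lay mostly at the gene starts. Between Hist1h4h and Hist1h1a the member windows took up 19.6% of the bases and held 80.1% of the fragments, 16.5 times the density of the rest. In Hist2 they took up 28.3% of the bases and held 91.8% of the fragments. Between the first and last member of Hist1 lie 49 other protein-coding genes, of which 36 are vomeronasal receptor genes with a median of 1 fragment. Of the 49, Abt1 (1303), Zfp184 (1269) and Zfp322a (982) had most fragments, and Vmn1r217, Vmn1r220 and Vmn1r221 were among 8 with 0. The iron regulator Hfe, 12.4 kb from the nearest member, had 508.

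**Figure D2:**
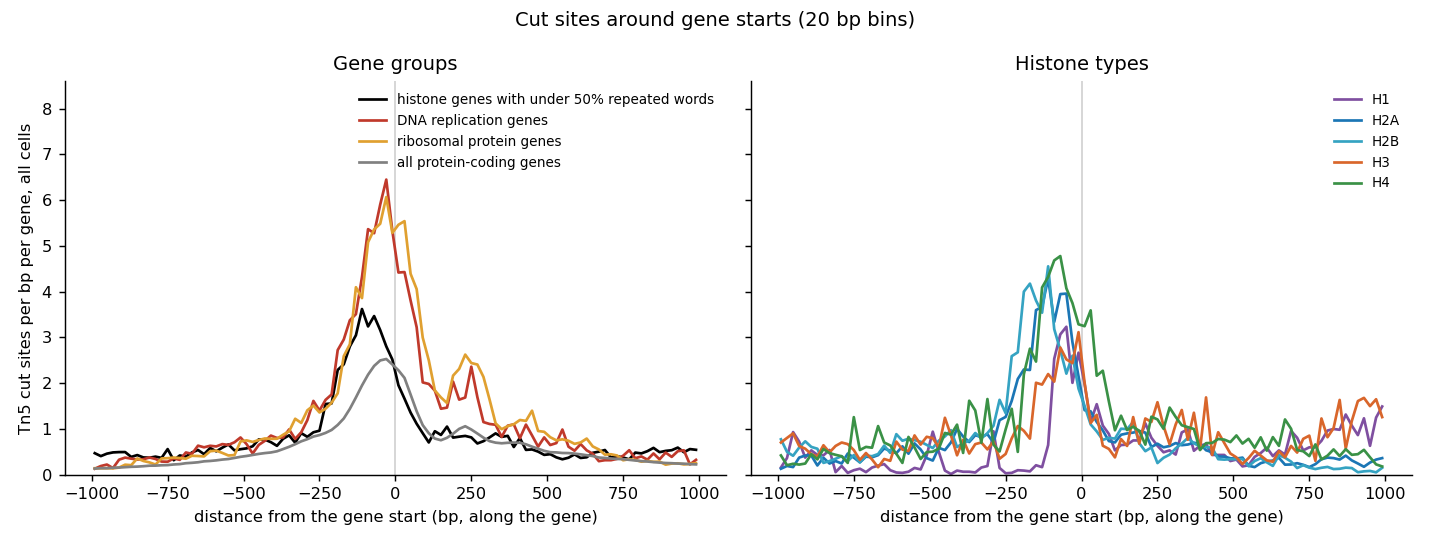
Tn5 cut sites per base and per gene, summed over all cells, are plotted against distance from the gene start in 20 bp bins, for 4 groups of genes on the left and for 5 histone types on the right. Histone genes with under 50% repeated words peak 110 bases before the start, at 3.62 cut sites per base, and the DNA replication genes 30 bases before it, at 6.45.

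The shape of the open site differed by histone type. Cut sites, the ends of fragments, peaked 110 bases before the start in H2A and H2B genes, 70 before it in H4, 50 in H1 and 10 in H3 genes. In all protein-coding genes, in DNA replication genes and in ribosomal protein genes the peak lay 30 bases before the start. Over all members whose window had under 50% repeated words it lay at 110 bases, the place set by the H2A and H2B genes. In the 200 bases before the start there were 2.94 cut sites per base and member, 3.04 times the density in the 400 bases after it, against 1.84 times in all protein-coding genes. For H2B and H2A genes the ratio was 4.27 and 3.85, for H4 genes 2.54, for H3 genes 2.06 and for H1 genes 1.72. Most H2A and H2B genes lie in divergent pairs, whose partners share the stretch upstream, and the part of this in the ratio was not tested. Fragments over members were longer: 34.4% were no longer than the DNA wrapped on 1 nucleosome core, against 42.7% over all protein-coding starts and 49.0% over DNA replication genes. The median length was 223, 180 and 153 bp.

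Counts per cell were compared after each cell was thinned to 6000 nuclear fragments, which left out 242 shallower cells and kept 3387. The mean was 6.11 histone fragments per cell and the middle 90% of cells had 2 to 11. In 10 cells (0.295%) the count was 0. The variance was 1.22 times the mean, against 1.15 for DNA replication genes and 1.19 for ribosomal protein genes. Hist1 alone gave 1.25 and Hist2 1.11. Thinned to 4000 fragments, members gave 1.17, DNA replication genes 1.14, ribosomal protein genes 1.18, Hist1 1.13 and Hist2 1.06, so the order depended on the thinning. Across the 3387 cells the Hist1 and Hist2 counts had a Spearman correlation of 0.031, a weak value in sparse counts that share each cell's thinning. Nearly all cells thus had histone fragments, with a spread a little over that of counting.

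**Figure D3:**
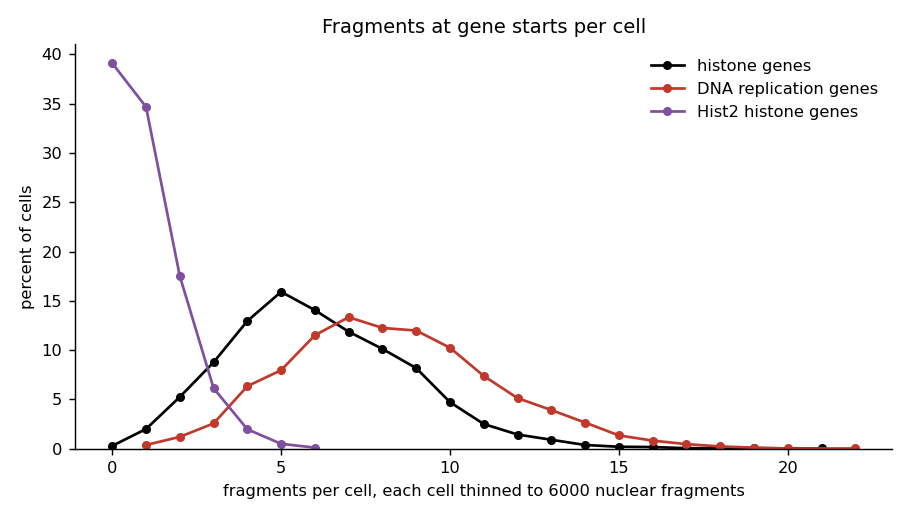
The share of cells is plotted against fragments per cell over the histone genes, the Hist2 genes alone and the DNA replication genes, after each cell was thinned to 6000 nuclear fragments. Histone counts form 1 hump around a median of 6, with 0.295% of cells at 0, and Hist2 alone is at 0 in 39.1% of cells.

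Cells were then compared by RNA content. Among the 182 cells with the most RNA UMIs (the highest 5%, from 3518 UMIs, a split chosen after the data were seen), the histone windows held 1153 fragments per 1000000 nuclear fragments, against 997 in the other 3447 cells. The log2 ratio was 0.21 (interval 0.16 to 0.26). The ratio was 0.23 for Hist1 and 0.16 for Hist2, and over types it was 0.27 for H2A, 0.24 for H2B, 0.23 for H3, 0.19 for H4 and 0.02 (-0.14 to 0.18) for H1. Over the same cells it was 0.02 (-0.02 to 0.07) for DNA replication genes, 0.00 for replacement histones, 0.04 for histone transcription and processing genes, -0.02 for chaperones, -0.03 for ribosomal protein genes and -0.05 for all protein-coding starts. Of these cells 67% had excess overlapping fragments against 5.45% of the rest, and their median depth was 17990 against 10182 fragments. With each cell thinned to 6000 fragments, the ratio was 0.24 (0.15 to 0.32). Without all cells with excess overlaps, 60 high cells were left and the ratio was 0.14 (0.03 to 0.25).

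Single members carried this difference unevenly. Of 59 members with at least 50 fragments, 16 had a log2 ratio of at least 0.5 and 0 had one of -0.5 or below, against 3.58% and 4.94% of the 14896 genes measured. All 16 had under 1000 fragments over all cells, while these shares are over genes of every level. Among the 16, Hist1h2ak and Hist1h2bn shared 98.5% of their fragments, and Hist1h2ae and Hist1h2bg 98.2%. Hist1h4n and Hist2h3c2 had intervals that included 0 and windows of 50% or more repeated words. The 5 largest ratios were those of Hist1h4m (1.39), Hist1h2ab (1.35), Hist1h3b (0.94), Hist1h4k (0.87) and Hist1h2af (0.83). Hist1h2ab, an H2A gene, had 18.4 fragments per 1000000 in the high cells and 7.29 in the rest, with an interval of 0.90 to 1.76. Hist1h3b, an H3 gene 1141 bases from it, had 16.9 and 8.87, and shared 38.8% of fragments with it. Hist1h4m lies in the duplicated block and rests on 14 and 62 fragments. Of the 36 members with under 1000 fragments over all cells, 35 had a ratio above 0, with a median of 0.45, against 47.5% above 0 and a median of -0.02 among all genes of that level. Of the 23 members with more, 14 were above 0, with a median of 0.03, against 37.0% and -0.05 for all genes of that level. This split was not planned. Partners of divergent pairs count singly in it although most share nearly all fragments, so the members are not separate measurements. Hist1h4h, among the most open, had -0.30 (-0.55 to -0.07), and the pair Hist1h2ac and Hist1h2bc had -0.08 and -0.04. Hist1h4a had 0.24 (0.05 to 0.42). Without cells with excess overlaps, 12 of 59 members passed 0.5, when 12.2% of all genes did in those 60 cells.

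With cells split into 4 groups of near equal size by RNA UMIs, the histone level per 1000000 nuclear fragments was 1030 (1008 to 1052), 1000 (980 to 1021), 963 (944 to 983) and 1039 (1021 to 1058), from the lowest to the highest, and so not a steady trend. The highest 25% against the lowest 25% gave a log2 ratio of 0.01 (-0.03 to 0.05), while all protein-coding starts gave -0.11 and DNA replication genes -0.07. Per fragment in protein-coding starts, the histone ratio was 0.12 (0.08 to 0.16). Of 58 members with 50 fragments, 3 were at or above 0.5 (Hist1h4f, Hist1h3b and Hist1h2bk, at 0.69, 0.53 and 0.50) against 2.32% of all genes, and 0 were at or below -0.5 against 1.4%. Median depth was 12122 fragments in the highest and 9117 in the lowest group, and excess overlaps were at 24.4% and 2.43%. Without cells with excess overlaps the ratio was -0.07 (-0.12 to -0.03). With cells ranked within 4 strata of ATAC depth it was 0.05 (0.01 to 0.09), and with each cell thinned to 6000 fragments it was -0.02 (-0.08 to 0.04), so the sign changed with the treatment of depth.

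CD274 (PD-L1), an inhibitory ligand of T cells, had the most tags of the 12 antibodies. The 937 cells with 27 or more CD274 tags had 984 histone fragments per 1000000 nuclear fragments, and the 877 cells with at most 12 had 1074, a log2 ratio of -0.13 (-0.17 to -0.09). The cells with counts between stood at 994 and 989, so only the group with fewest tags stood apart. Hist1 had -0.17 (-0.22 to -0.13), Hist2 had 0.03 (-0.07 to 0.13), Hist3 0.06 (-0.12 to 0.23) and Hist4 -0.13 (-0.36 to 0.10). By type the ratio ran from -0.15 (-0.22 to -0.08) for H2A to -0.10 (-0.17 to -0.03) for H4, with intervals that overlapped. DNA replication genes had -0.02 (-0.05 to 0.01), ribosomal protein genes 0.01, replacement histones 0.01 and all protein-coding starts 0.02.

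Of 58 members with at least 50 fragments, 8 were at or below -0.5 by CD274 and 0 at or above 0.5, against 1.32% and 2.18% of the 14056 genes measured. All 8 lie in Hist1, which holds 54 of the 67 members. They had under 1000 fragments over all cells, as did 35 of the 58, while the shares are over genes of every level. Hist1h3b had 6.96 fragments per 1000000 in CD274-high and 13 in CD274-low cells, a log2 ratio of -0.90 (-1.35 to -0.47). Hist1h3d had -0.76, Hist1h2af -0.73, Hist1h2ab -0.65 and Hist1h4i -0.64. The pair Hist1h2ak and Hist1h2bn, nearly 1 measurement, had -0.56 each, and Hist1h4k had -0.61. Members with under 1000 fragments had a median of -0.27, with 3 of 35 above 0, against 0.02 and 54.6% for all genes of that level. The more open members had a median of -0.0026, with 9 of 23 above 0, against 0.02 and 57.3%. Here too partners of divergent pairs count singly, and the split was not planned. Hist1h4a, Hist1h4h and Hist1h2bc, at the top of the family, had 0.02, -0.08 and -0.02. The CD274 and RNA comparisons drew on the same cells.

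**Figure D4:**
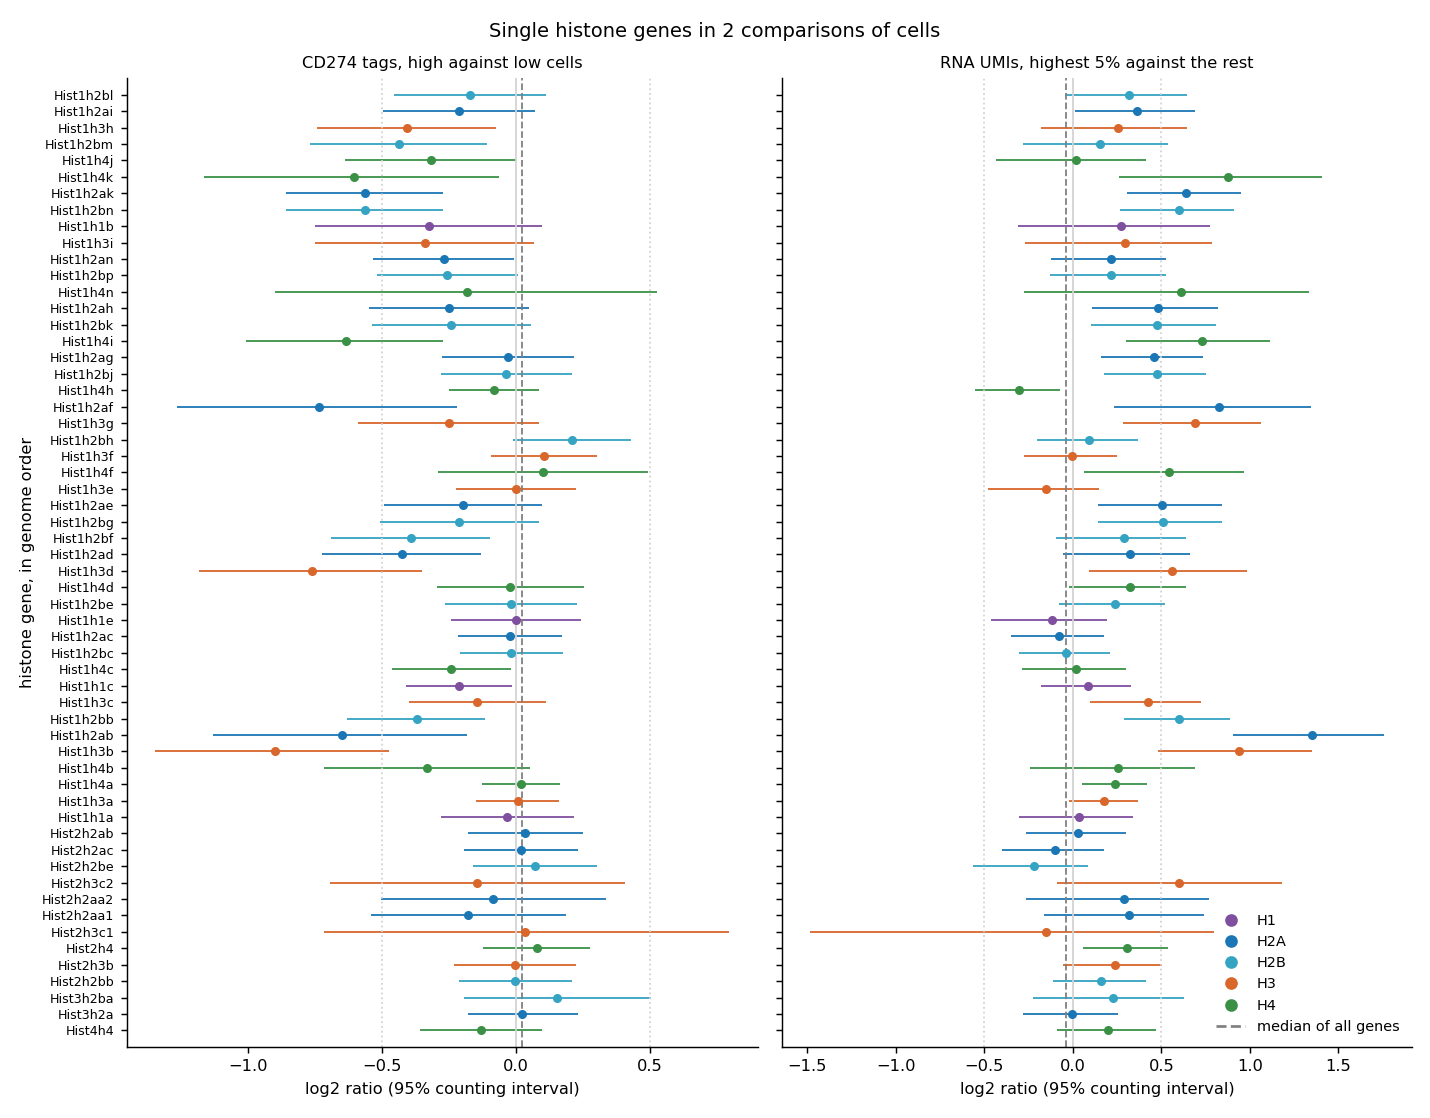
Each row is 1 histone gene with at least 50 fragments in both comparisons, with its log2 ratio and 95% counting interval for CD274-high against CD274-low cells on the left and for the highest 5% of cells by RNA UMIs against the rest on the right; dotted lines mark 0.5 in size. Hist1h3b is lowest on the left at -0.90, Hist1h2ab is highest on the right at 1.35, and the comparisons share cells.

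The CD274 ratio was closer to 0 when deep cells were left out, but not when depth was equalised. Without the deepest 5% of cells by fragments or RNA UMIs, the pooled ratio was -0.06 (-0.11 to -0.02) and 3 of 58 members were at or below -0.5, against 1.46% of all genes. Without cells with excess overlaps it was -0.08 (-0.12 to -0.03) with 4 members, against 1.57%. With cells ranked within 4 strata of ATAC depth it was -0.13 (-0.17 to -0.09) with 9 of 58 members, against 1.31% of all genes, and with each cell thinned to 6000 fragments it was -0.12 (-0.18 to -0.07). Excess overlaps were at 13.9% of CD274-high and 8.21% of CD274-low cells, median depth was 10311 and 10486 fragments, and median tags per cell were 46 and 17. These totals include the CD274 tags themselves, with medians of 34 and 9, so they rise with CD274 by how they are summed. With CD274 taken as a centred log ratio to the other tags of the cell, the ratio was -0.10 (-0.14 to -0.06) with 7 of 58 members, against 1.42% of all genes. Among cells with 50 or more tags, ranked anew by CD274 within that set, 88 high and 94 low, it was -0.04 (-0.16 to 0.08). The CD274-low cells above had a median of 17 tags, so this set compares other cells and does not repeat that contrast.

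Of the other 11 antibodies, CD61 (integrin beta 3, a platelet and megakaryocyte adhesion receptor) gave the largest pooled difference between high and low cells. With cells split at the median, the ratios of CD68 and CD206 were slightly larger in size, as was that of CD68 as a centred log ratio. The 779 cells with 6 or more CD61 tags had 983 histone fragments per 1000000 and the 727 with at most 1 had 1079, a log2 ratio of -0.13 (-0.18 to -0.09), with -0.02 for DNA replication genes. For CD61, 5 of 58 members were at or below -0.5 and 0 at or above 0.5, against 1.24% and 2.12% of 13846 genes: Hist1h3d (-0.78), Hist1h3b (-0.68), Hist1h4f (-0.64), Hist1h4i (-0.53) and Hist2h3c2 (-0.52). All 5 had under 1000 fragments over all cells, and the interval of Hist2h3c2 included 0. CD357 (GITR), with high from 5 tags, gave 0.06 (0.03 to 0.10) and CD68 gave 0.07 (0.01 to 0.12) with 281 tagged cells. Split at the median, CD357 gave 0.02 (-0.01 to 0.05), and thinned to 6000 fragments CD68 gave 0.06 (-0.02 to 0.13), so both intervals then included 0. As centred log ratios they gave 0.10 (0.06 to 0.14) and 0.11 (0.07 to 0.15), and CD357 gave 0.07 (0.02 to 0.12) thinned and 0.08 (0.04 to 0.12) within strata of ATAC depth. CD201 (EPCR), a marker of stem cells, gave -0.04 (-0.07 to -0.01) and P2X7R -0.03 (-0.06 to -0.003). Both intervals included 0 with cells thinned to 6000 fragments, and that of P2X7R also when scaled by promoter fragments or within strata of ATAC depth. The intervals of the 6 other antibodies, CD27, CD106, CD163, CD183, CD206 and MERTK, included 0, with values from -0.04 to 0.07. Thinned to 6000 fragments, CD183 gave 0.10 (0.02 to 0.18) against 0.05 before. As centred log ratios to the other tags of the cell, CD201 gave 0.01 (-0.03 to 0.05), P2X7R 0.03 (-0.01 to 0.07) and CD106 0.01 (-0.03 to 0.05), all 3 with the sign turned, and CD163, CD183, CD206 and MERTK gave 0.06 to 0.09 with intervals above 0. For antibodies without a tag in most cells, that ratio ranks cells largely by their other tags. By CD61 the ribosomal protein genes had -0.02, Hist1 -0.15 and Hist2 -0.07. Replacement histones had -0.06 (-0.13 to 0.006), histone chaperones -0.04 (-0.09 to 0.005) and all protein-coding starts 0.01. Per fragment in protein-coding starts, the members had -0.14, replacement histones -0.07 (-0.14 to -0.001) and chaperones -0.05 (-0.10 to -0.002). CD61 tags came with deeper tag counts (medians 36 and 22 per cell) and more cells with excess overlaps (14.2% and 6.46%). As a centred log ratio CD61 gave -0.10 (-0.15 to -0.06), with each cell thinned to 6000 fragments -0.17 (-0.24 to -0.11), and with cells split at the median -0.06 (-0.09 to -0.03); the part of excess overlaps was not tested for CD61. Cells overlap between all of these comparisons.

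**Figure D5:**
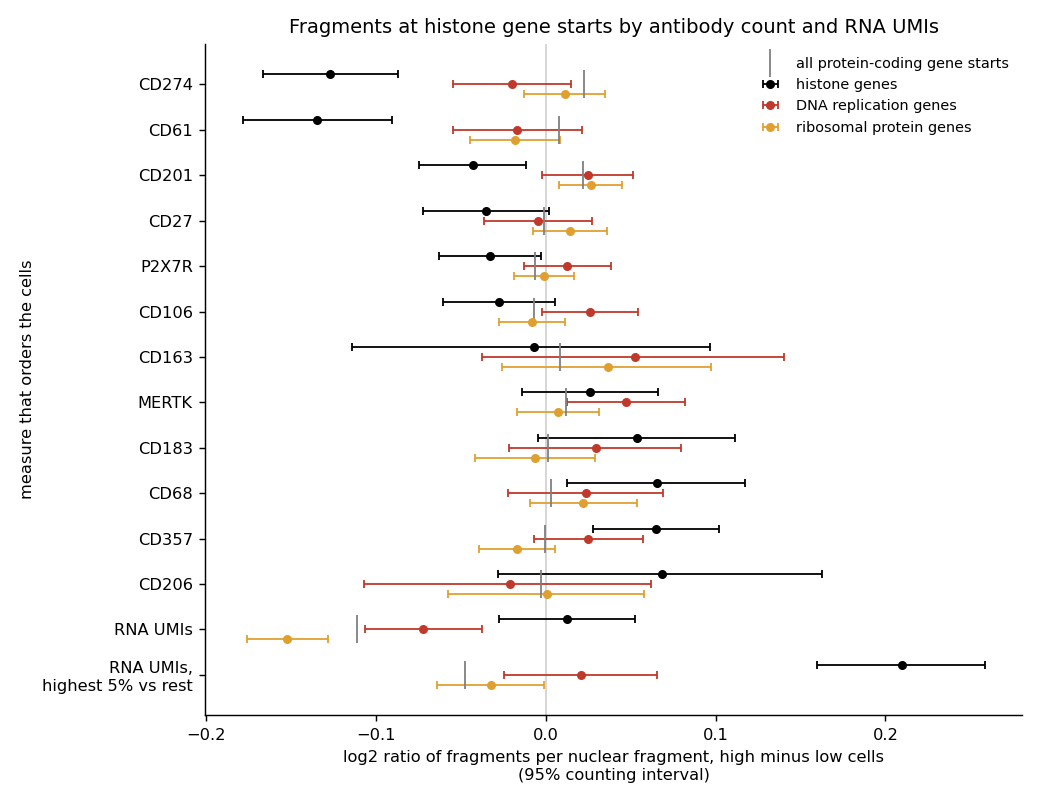
Log2 ratios of fragments per nuclear fragment, high minus low cells, are plotted for 12 antibodies and for RNA UMIs, with 95% counting intervals, for the histone genes, DNA replication genes and ribosomal protein genes, and a grey tick for all protein-coding gene starts. The histone genes lie at -0.13 for CD274 and CD61 and at 0.21 in the highest 5% of cells by RNA UMIs.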

How the data were processed

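DOGMA-seq of 1 pool of cells gave an ATAC, a gene expression and an antibody tag library. Per the file headers and the submitters' processing notes, the authors processed ATAC and RNA with Cell Ranger ARC 2.0.2 on mm10, which calls cells, collapses duplicate read pairs to 1 fragment line and shifts fragment ends for the transposase; these values were deposited as counts without normalization. The antibody counts were deposited per cell; for their counting tool, the version was not given in the sources used here. RNA UMI counts per barcode came from the deposited metrics, and the flag of called cells per barcode was used as the authors gave it. The antibody identifiers of the deposited table were used as given. The RNA matrix was not analysed here. The members and lists were chosen with earlier results of these data known.

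Genes were protein-coding genes of GENCODE M21. A window was 1 kb on each side of the gene start; fragments overlapping several windows counted once in a sum. Levels had exact Poisson intervals, shares exact Clopper-Pearson intervals, and log2 ratios of rates per nuclear fragment (0.5 added to each count) exact conditional binomial intervals. High and low cells were those nearest the highest and lowest 25% that tied counts allowed, or all cells without a tag. A single gene was counted as different at a log2 ratio of at least 0.5 in size with at least 50 fragments over both groups. Genes named were the 5 highest and 5 lowest members, the highest of each type, all members of Hist2 to Hist4, the testis histones, at most 5 past that size each way, and the extremes of each list and of the neighbours in Hist1; Hist1h1d, Hist1h2be, Hist1h4k, further members past that size, partners of named pairs, Hfe, Npat and Slbp were added after their values were seen. No cell was removed as a doublet. An alternative left out cells with more autosomal sites of coverage 3 or deeper than the mean cell (fragments to 900 bp, Poisson, adjusted value under 0.01), a measure not scaled for depth. A window position was a repeated word where its 50 bases occur elsewhere in the genome. Sequences were read from the GRCm38.p6 genome, which is mm10. On simulated data with the depth of the CD274 groups, 99.0% of genes changed by a log2 ratio of 1 passed 0.5 among 14047 genes, 1.85% of unchanged genes did, and 95.6% of intervals held the true value. No other size of change was simulated, and the members counted as different by CD274 had ratios smaller in size than 1. Alternatives were windows of 250 bp, cut sites, fragments of at most 147 bp, 50 or more tags, cells without excess overlaps or without the deepest 5%, scaling by promoter fragments, a median split, thinning to 6000 (or 4000) fragments, 4 strata of ATAC depth and centred log ratios. Windows over start codons, levels over members with under 50% repeated words and the highest 5% by RNA UMIs were added after the data were seen. Scripts ran in Python 3.11.15 and used scipy 1.17.1, numpy 2.4.6, matplotlib 3.10.9 and pandas 2.3.3.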

Additional observations from a re-analysis of the deposited data

How the results depend on the processing

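No paired analysis was possible because each assay had 1 sample. The histone level, 1010 fragments per 1000000 nuclear fragments, was 769 with windows of 250 bp, 1967 as cut sites, 348 with short fragments, 996 without cells with excess overlaps, 998 without the deepest 5% and 1040 (1040.49) over start codons. The median member's percentile was 51.6 among genes with at least 20 fragments. The CD274 ratio was -0.19 with short fragments, -0.039 with 50 or more tags, -0.075 without cells with excess overlaps, -0.063 without the deepest 5% and -0.065 when cells were split at the median. It was below 0 in each of these. With 50 or more tags, where cells were ranked anew within that set, its interval included 0. Members at or below -0.5 by CD274 then numbered 4 of 58 without cells with excess overlaps (1.57% of all genes), 3 of 58 without the deepest 5% (1.46%), 2 of 26 with 50 or more tags (5.47%) and 3 of 59 at the median split (1.01%). The RNA ratio, 0.01 before, was -0.036 with windows of 250 bp, -0.073 without cells with excess overlaps, -0.069 without the deepest 5% and 0.12 scaled by promoter fragments, so its sign depended on these choices. The causes were not tested. The other 32 values that answer a comparison stayed near the reported one: levels and ratios within its counting interval, percentiles within 5 points, the ratio of variance to mean within 0.1 and counts of members within 1.5 times. A count of members can stay near while the share of all genes moves. In the highest 5% by RNA UMIs, 16 of 59 members passed 0.5 against 3.58% of all genes. Without cells with excess overlaps, 12 of 59 did against 12.2%. For 9 of the 11 other antibodies, all but CD357 and P2X7R, ranking within strata of ATAC depth picked the same cells as no strata, because of tied tag counts, and so tests nothing. With 1 pool, nothing here measures the spread between animals.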
